A study of Caenorhabditis elegans with 2 samples.

Results

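The 8 SR protein genes of the nematode Caenorhabditis elegans, rsp-1 to rsp-8, were examined for binding of a tagged protein by chromatin immunoprecipitation followed by sequencing. The genes were taken by symbol, and all 8 were found among 19973 protein-coding genes of the annotation. A gene was credited with every peak whose summit lay in the gene or within 1000 bp upstream of it. The chromatin came from strain RW12180, which carries a CRISPR insertion of TY1, EGFP and 3xFLAG tags at 1 gene of chromosome I. The labels call that gene dox-1 in the allele, st12180[dox-1::TY1::EGFP::3xFLAG], and dxbp-1 as the target of the insertion. Intact animals were taken as young adults at 66 hours, having been synchronised as L1 larvae by bleaching and starvation. Their chromatin was sonicated, with a stated size range of 200 to 800, and precipitated with an anti-GFP antibody. The series holds 2 biological replicates of these tagged worms and no other genotype, age or treatment. An experiment that the labels list as a possible control is not analysed here, so whether a summit depends on the tagged protein was not tested.

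SR proteins carry RNA recognition motifs and a tail rich in arginine and serine. They bind exons of nascent transcripts and help the U1 snRNP and the U2AF factor to recognise splice sites, and SR protein kinases control them by phosphorylating that tail. Several SR genes in worms and in mammals also make transcripts with early stop codons that nonsense-mediated decay removes. In this family rsp-3 encodes the homologue of human SRSF1, rsp-4 that of SRSF2, rsp-6 a small SR protein related to SRSF3, and rsp-8 a homologue of Transformer-2. The genes rsp-1, rsp-2 and rsp-5 encode further proteins of the classical SR type, and rsp-7 a more distant SR-related protein.

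Of the 8 genes, 6 had a summit of the conservative set, the authors' list of peaks kept for reproducibility between both samples. Over all protein-coding genes the share was 13.4%. The 6 genes were rsp-1, rsp-2, rsp-5, rsp-6, rsp-7 and rsp-8, and they held 6 distinct summits, because rsp-1 and rsp-2 shared 1 and rsp-8 had 2. The same 6 genes had a summit in the authors' larger set (17.1% of all genes), where rsp-8 gained another. Neither set had a summit at rsp-3 or rsp-4. Counting only the 1000 bp upstream of the genes, a window chosen after the data were seen, left the same 6 genes against 9.43% of all genes. The median window of the family was 2628 bp, against 3027 bp for all protein-coding genes.

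The sequences under the 5 upstream sites are shown because they lie under the family's upstream summits, and because those of rsp-5 and rsp-7 share a run of letters. They come from the RefSeq genome of assembly WBcel235, the assembly of the ce11 files, and are given 5′ to 3′ on the plus strand. For rsp-1 and rsp-2 the whole peak is printed (II:11453051-11453345, 295 bp). The other lines hold the summit with 50 bp on each side of it: rsp-5 at II:6489942-6490042, rsp-7 at II:10658858-10658958, rsp-6 at IV:7791287-7791387 and rsp-8 at III:11825788-11825888. Capitals mark matches on either strand to the words named with the results on letters: the run shared by rsp-5 and rsp-7, and, in the rsp-1 and rsp-2 peak, TTTCAG (written there as its reverse complement) and further right TGACG (likewise).
rsp-1/rsp-2: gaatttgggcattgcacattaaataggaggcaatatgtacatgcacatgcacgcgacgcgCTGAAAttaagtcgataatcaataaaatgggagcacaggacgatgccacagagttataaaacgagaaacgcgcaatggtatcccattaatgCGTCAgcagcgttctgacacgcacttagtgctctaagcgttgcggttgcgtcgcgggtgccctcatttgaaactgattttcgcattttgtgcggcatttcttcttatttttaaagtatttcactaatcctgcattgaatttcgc
rsp-5: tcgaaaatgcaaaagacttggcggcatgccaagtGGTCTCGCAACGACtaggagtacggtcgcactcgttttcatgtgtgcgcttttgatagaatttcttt
rsp-7: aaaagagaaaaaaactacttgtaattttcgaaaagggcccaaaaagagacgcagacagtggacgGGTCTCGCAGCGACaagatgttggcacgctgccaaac
rsp-6: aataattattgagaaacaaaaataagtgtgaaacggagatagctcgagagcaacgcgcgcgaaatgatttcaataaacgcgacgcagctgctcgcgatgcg
rsp-8: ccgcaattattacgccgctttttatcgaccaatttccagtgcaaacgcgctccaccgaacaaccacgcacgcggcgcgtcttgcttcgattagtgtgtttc

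The strongest site of the family lay between rsp-1 (WBGene00004698, II:11453362-11455864, plus strand) and rsp-2 (WBGene00004699, II:11451441-11452955, minus strand). These genes point away from each other, with 406 bp between them. The signal, the value the authors' peak caller gave to a peak, was 345 in replicate 1 and 372 in replicate 2. The mean was 359 ± 19.2 (SD, n = 2), and the replicate values did not overlap those of any other member. In both replicates the irreproducible discovery rate (IDR) was 1e-05, the lowest value the lists hold. The IDR is low for peaks that rank consistently high in the lists being compared. The summit was at II:11453186 in replicate 1 and in the set from both samples, and 14 bp away in replicate 2.

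The shared peak lay closer to the annotated start of rsp-1 than to that of rsp-2, but the start of rsp-1 belongs to a noncoding transcript. The distance was -176 bp from the rsp-1 gene start and -231 bp from rsp-2, where a negative value means upstream. Of the 6 transcripts of rsp-1, 5 are protein-coding, and the summit was -788 bp from the first start among these. To which of the genes the binding belongs cannot be told apart from peaks. Inside the gene bodies the ranked lists, which hold peaks before any threshold on IDR, showed only weaker signal. The highest of it was at 1176 bp past the rsp-2 start, with a signal of 64.5 in replicate 1 and 68.2 in replicate 2 and an IDR of 0.586 and 0.109.

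**Figure D1:**
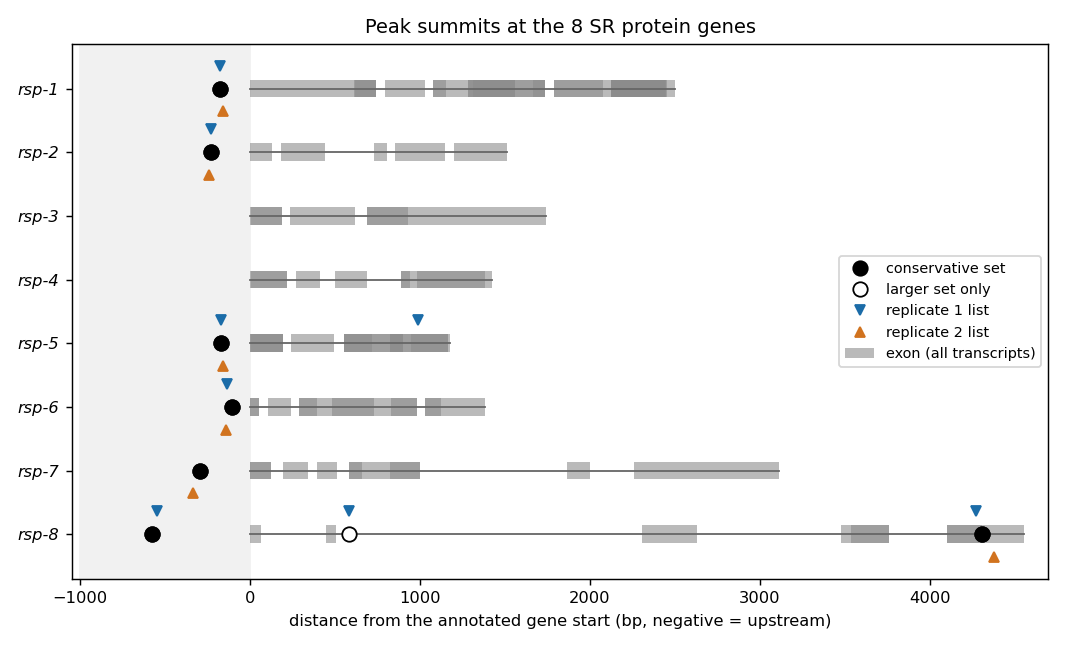
Summits at each SR gene by distance from the annotated gene start in bp, with the upstream 1000 bp shaded and exons of all transcripts as grey boxes. Filled circles are the conservative set, the open circle a summit of the larger set only, and triangles the thresholded lists of replicate 1 (pointing down) and replicate 2 (pointing up). At 6 genes a filled circle is present, while rsp-3 and rsp-4 have no symbol.

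At rsp-6 (WBGene00004703, IV:7789847-7791229, minus strand) the summit lay at -108 bp, the closest to its gene start among the upstream summits of the family. The signal was 200.0 in replicate 1 and 216 in replicate 2, a mean of 208 ± 11.6 (SD, n = 2). Both values passed the IDR threshold of 0.01, at 0.000196 and 6.42e-05. No other protein-coding gene had this summit in its window. The next gene upstream, C33H5.13, lies 474 bp away on the same strand.

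At rsp-5 (WBGene00004702, II:6490165-6491340, plus strand) the summit lay at -173 bp, in the 403 bp that separate the gene from snr-3, which runs the other way. That neighbour encodes an Sm protein of the spliceosomal snRNPs, and its start was 231 bp from the same summit. Signal was 215 in replicate 1 and 162 in replicate 2, a mean of 188 ± 37.5 (SD, n = 2), and IDR was 7.77e-05 and 0.000586. The replicate values of rsp-5 and rsp-6 overlapped, so their order was not separated by the replicate spread. In replicate 1 alone a further peak at 988 bp past the rsp-5 start passed the threshold, with a signal of 93.4 and an IDR of 0.00598. In the ranked list behind the conservative set the peak there had its summit at 1101 bp and an IDR of 0.180. In the ranked list behind the larger set the same peak had an IDR of 0.0108, just above the threshold.

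At rsp-7 (WBGene00004704, II:10659206-10662317, plus strand) the site was likewise between divergent genes. The summit was -298 bp from rsp-7 and -282 bp from snu-13, which encodes a protein of the U4/U6 snRNP and of snoRNPs. It also fell inside the annotated ncRNA gene M28.13, 11 bp past its start. The mean signal was 143 ± 46.1 (SD, n = 2), and this site had the widest spread between replicates of the family, with a log2 ratio of replicate 1 to replicate 2 of 0.67. Over the conservative set the median of that ratio was 0.11, with an SD of 0.38 across peaks. Signal was 175 in replicate 1, where the IDR was 0.0206, and 110 in replicate 2, where it was 0.00843. The replicate with the higher signal was therefore the one in which the peak missed the threshold. The summits of the replicates were 70 bp apart.

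Every pair of the 6 member windows was searched, on both strands, for the longest run of letters shared with at most 1 mismatch, a search added after the sequences had been read. The longest joined the sites of rsp-5 and rsp-7, at 14 letters, and the other pairs reached 8 to 11. The run is GGTCTCGCANCGAC, where N is the mismatch, and it was centred at -9 bp from the summit at rsp-5 and at 21 bp past it at rsp-7. Of the 3291 summit windows of the conservative set, 7 held it on either strand (0.213%), as did 9 of 19971 windows of the same length centred 200 bp upstream of RefSeq protein-coding gene starts (0.0451%). The 7 include the windows of rsp-5 and rsp-7, from which the run was taken, and promoter windows can cover the same stretches. Because the run was picked from the member windows, its presence there is a description. The difference between the shares was not tested. Among words of other kinds, TGACG was in the window of rsp-1 and rsp-2 alone, against 16.4% of conservative windows and 10.2% of promoter windows. GAGAGA was in none of the 6 windows, against 20.4% and 7.49%. The word CCGCCC was also in none, against 6.35% and 2.36%. TTTCAG was in none either, against 8.48% and 16.7%, and its match in the rsp-1 and rsp-2 peak lies outside the summit window. The median share of G and C was 47.5% in the 6 member windows, 47.5% in all conservative windows and 33.7% in the promoter windows. A match is a description of letters and not evidence of a site.

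The gene rsp-8 (WBGene00004705, III:11826418-11830974, plus strand), the longest of the family at 4557 bp, had a conservative summit at either end. At the upstream site, -580 bp from the start, signal was 111 in replicate 1 and 113 in replicate 2, a mean of 112 ± 1.42 (SD, n = 2). Its IDR was 0.00255 in replicate 1 and 0.0261 in replicate 2, so it passed in replicate 1 only. The other site lay at 4310 bp past the gene start, at the stop codon that both transcripts share and 773 bp past the start of the shorter one. Its signal was 119 and 138, a mean of 128 ± 13.5 (SD, n = 2), and it passed in both replicates. The replicate summits of that site were 108 bp apart. Its sequence is not shown because the window reaches into an annotated UTR.

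A further rsp-8 summit, in an intron at 581 bp past the start, was in the larger set and not in the conservative one. In replicate 1 the peak there had a signal of 110 and an IDR of 0.00406. In replicate 2 the nearest ranked peak, at 520 bp, had a signal of 43.3 and an IDR of 0.382. The intronic peak was thus seen at threshold in replicate 1 only.

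**Figure D2:**
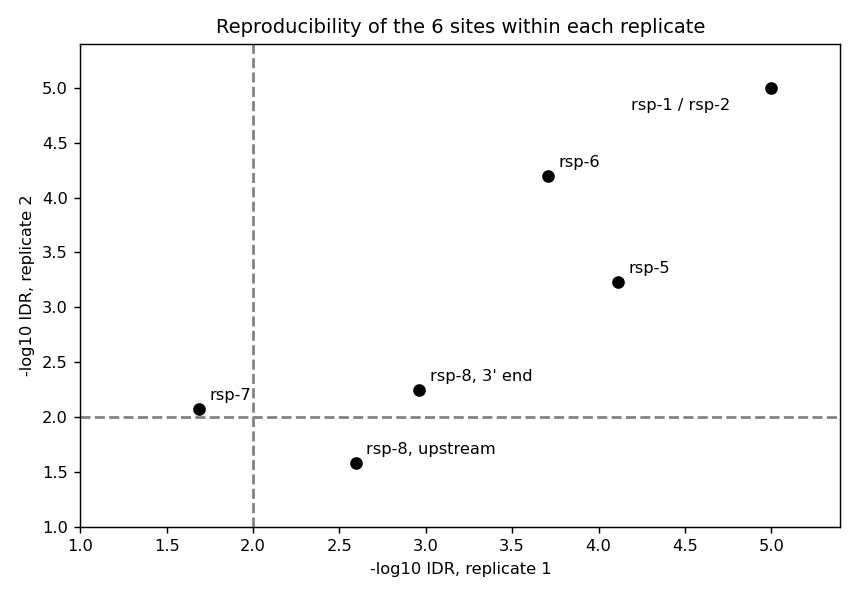
Reproducibility of each conservative site within each replicate, as −log10 of the IDR (higher is more reproducible, capped at 5), with dashed lines at the threshold of 0.01. The sites of rsp-7 and of the upstream part of rsp-8 each fall below the line in 1 replicate, and the other 4 sites pass in both.

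The homologues of the mammalian factors SRSF1 and SRSF2, rsp-3 and rsp-4, had no peak past the threshold in any of the thresholded lists. The list of replicate 1 had summits at 5 of the 8 family members (12.6% of all genes) and that of replicate 2 at 6 (12.5%). At rsp-3 (WBGene00004700, III:12686182-12687922, minus strand) no ranked peak of either replicate had its summit in the 1000 bp upstream of the gene, although spin-4 diverges from it at a distance of 395 bp. The strongest ranked peak in the gene had a signal of 51.0 in replicate 1, at 874 bp past the start, and 49.7 in replicate 2, at 1089 bp. The IDR of these peaks was 0.104 and 0.462. The nearest conservative summit was 26111 bp upstream of rsp-3.

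At rsp-4 (WBGene00004701, II:5387411-5388836, minus strand) the annotation leaves no space upstream, because the gene overlaps the end of ndx-6 on the same strand by 8 bp. The strongest ranked peak had a signal of 70.0 in replicate 1, at -615 bp, and 56.2 in replicate 2, at -323 bp, both inside ndx-6. The IDR was 0.156 and 0.321. In the ranked list behind the conservative set, from both samples, the strongest peak was instead inside rsp-4, at 1109 bp past the start. It had a signal of 98.3 and an IDR of 0.129, and an IDR of 0.471 in the ranked list behind the larger set. The nearest conservative summit was at -1296 bp from rsp-4 and -251 bp from the start of ndx-6, which encodes a Nudix hydrolase family protein. Signal at that summit was 143 in replicate 1 and 137 in replicate 2, a mean of 140 ± 4.20 (SD, n = 2), within the range of the values at rsp-7. With a window of 2000 bp in place of 1000 bp, this summit would bring the family count to 7, against 16.4% of all genes.

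A level was then given to every gene as the signal of the strongest ranked peak in its window. The order of mean levels in the family was rsp-1 and rsp-2, rsp-6, rsp-5, rsp-7, rsp-8, rsp-4 and rsp-3. From rsp-6 to rsp-8 each gene overlapped the next in replicate values, so the order within each adjacent pair was not resolved. Values of rsp-6 did lie above those of rsp-7 and rsp-8 without overlap, and values of rsp-5 above those of rsp-8. The replicate values of the rsp-1 and rsp-2 site lay above those of rsp-6 without overlap. Those of rsp-8 lay above those of rsp-4, and those of rsp-4 above those of rsp-3. The peaks behind the rsp-4 and rsp-3 levels did not pass the IDR threshold, and those of rsp-4 lay inside ndx-6. Within rsp-4 itself the strongest ranked peak had 54.1 in replicate 1 and 45.1 in replicate 2, which overlaps the values of rsp-3. In replicate 1 the level of rsp-1 and rsp-2 exceeded that of 98.6% of protein-coding genes and the level of rsp-8 that of 90.3%. For rsp-4 and rsp-3 the shares were 78.9% and 66.9% in replicate 1 and 68.3% and 62.3% in replicate 2. Of all genes, 9092 had no ranked summit in replicate 1 and 6806 had none in replicate 2. Among genes with one, the median level was 59.5 and 54.6, which is above rsp-3 in both replicates. In whole worms, weak binding in all cells and strong binding in a few cells cannot be told apart.

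**Figure D3:**
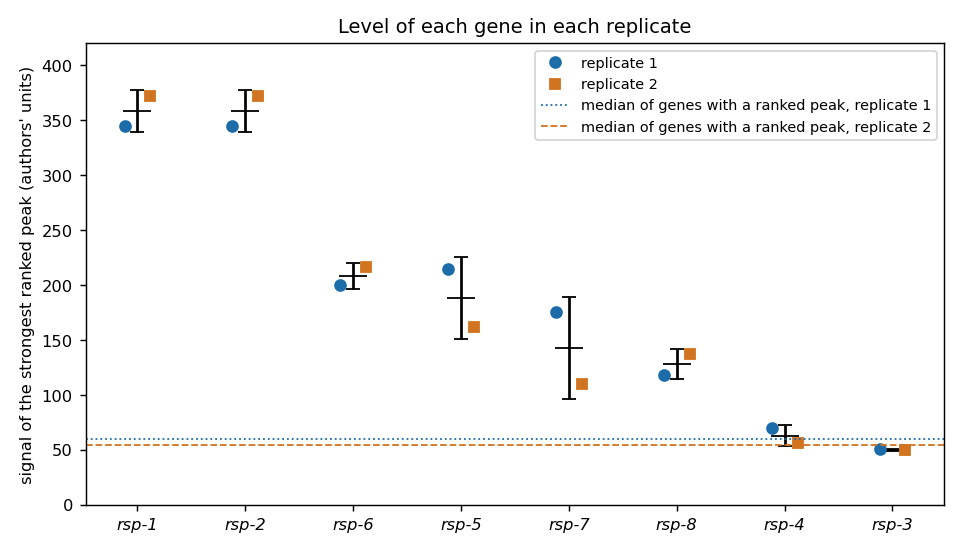
Signal of the strongest ranked peak in the gene or the 1000 bp upstream, in the units of the authors' peak caller, for each SR gene in replicate 1 (circles) and replicate 2 (squares), with the mean and SD as bars (n = 2). Dotted and dashed lines are the medians over all genes with a ranked peak, 59.5 in replicate 1 and 54.6 in replicate 2, and rsp-3 lies below both. The values of rsp-1 and rsp-2 are the same because they share the peak.

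Within the conservative set the members were spread from strong to weak. By mean signal of both replicates, the rsp-1 and rsp-2 site ranked 231 of the 3234 peaks with a value in both, rsp-6 ranked 725, rsp-5 ranked 886 and rsp-7 ranked 1466. The sites of rsp-8 ranked 1771 at its 3′ end and 2178 upstream. The median of the strongest site per bound gene was 198 over the 6 members, with the shared site counted for both genes, and 145 over all bound genes. Most member peaks were narrow in this set: 5 of the 6 sites were between 111 and 295 bp wide and the upstream rsp-8 peak was 436 bp. Of all conservative peaks 27.2% were under 300 bp, and the median was 436 bp. Widths differed in the ranked lists of the replicates. The peaks of rsp-5, rsp-7 and the rsp-8 3′ end were 149, 146 and 404 bp wide in replicate 1 and 440 bp each in replicate 2. Those of rsp-6 and of rsp-1 with rsp-2 were under 300 bp in both.

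**Figure D4:**
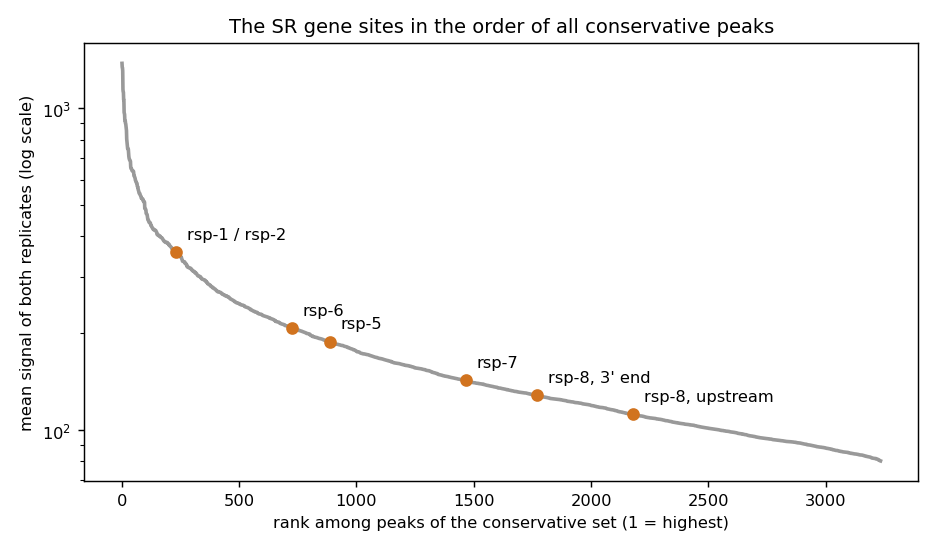
Mean signal of both replicates (log scale) against rank for all peaks of the conservative set with a value in both replicates (grey line), with the SR gene sites as points. The sites run from rank 231 for rsp-1 and rsp-2 to rank 2178 for the upstream site of rsp-8.

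The protein-coding genes most like rsp-1 and rsp-2 were sought by the distance between log2 signals in the 2 replicates. T19H12.2 and ugt-12, a UDP-glucuronosyltransferase gene, share a site with signals of 344 and 364, at a distance of 0.0302. The next, icd-1, encodes a subunit of the nascent polypeptide-associated complex and had 353 and 361 (0.0538), at a site it shares with vps-32.1. With 2 samples this likeness says only that the signals were close.

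Other genes that act with SR proteins were read by the same rule. Of 8 genes for partners of SR proteins and their kinase, 4 had a conservative summit, beside 13.4% of all protein-coding genes. The SR protein kinase gene spk-1 had 467 in replicate 1 and 371 in replicate 2, a mean of 419 ± 68.1 (SD, n = 2), above the mean of every SR gene, although its replicate 2 value was no higher than that of rsp-1 and rsp-2. Its summit was -291 bp from spk-1 and -287 bp from rheb-1, so it was shared. The gene rsr-1, for an SR-related matrix protein, had 461 and 332, a mean of 397 ± 91.2 (SD, n = 2), at a summit nearer to the start of sri-5. The large U2AF subunit gene uaf-1 had 147 and 129, a mean of 138 ± 12.9 (SD, n = 2), at -69 bp. For uaf-2, with 105 and 106, the summit lay at -677 bp and was nearer to the start of itsn-1, at -238 bp. Of these summits only that of uaf-1 was nearest to the start of its own gene.

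A further list held 20 genes for hnRNP proteins and other splicing regulators, some of them tissue-specific, called hnRNP and tissue regulators here. Of these, 8 had a conservative summit, beside the same 13.4%. By mean signal at the conservative summit, ccar-1 was highest at 328 ± 36.7 (SD, n = 2). Next came hrpk-1, for a KH domain protein of the hnRNP K family, at 308 ± 9.99 (SD, n = 2). After it came etr-1, for a CELF family protein of muscle, at 195 ± 20.6 (SD, n = 2). Levels can order the genes otherwise: in replicate 2 hrpa-1 had 85.6 at its conservative summit and a level of 229. In replicate 1 both values of hrpa-1 were 164. Of the 9 smg genes of nonsense-mediated decay, none had a summit in the conservative or in the larger set, although smg-1 had a ranked peak of 177 in replicate 2 and none in replicate 1. With 9 genes and a share of 13.4% over all genes, a count of 0 is near the background. The median of the strongest site per bound gene was 267 over the partners and 137 over the hnRNP and tissue regulators, beside 145 over all bound genes. These shares, 75% of the SR genes, 50% of the partners, 40% of the hnRNP and tissue regulators and 0% of the smg genes, beside 13.4% of all protein-coding genes, were not tested against each other.

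**Figure D5:**
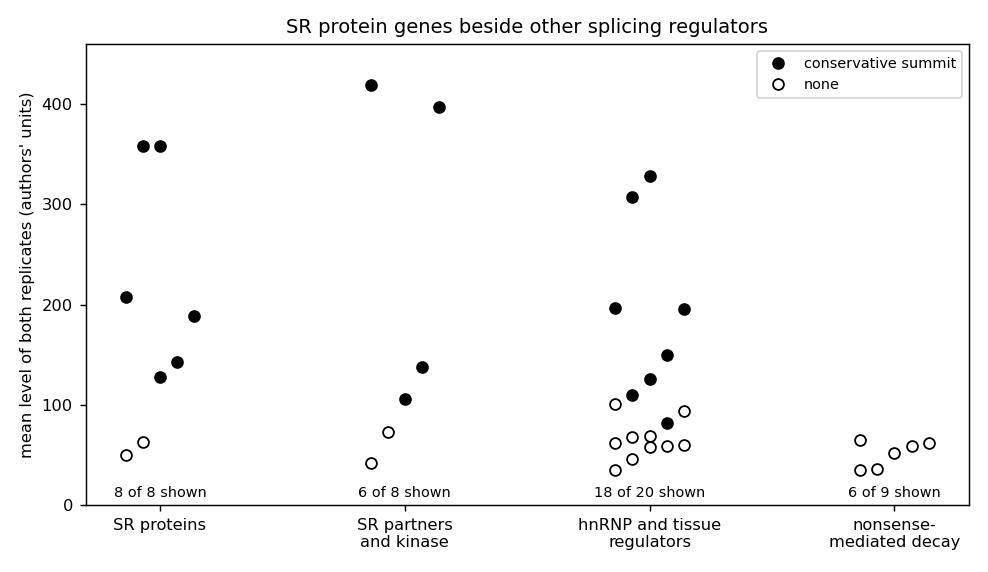
Mean level of both replicates, in the units of the authors' caller, for the SR genes and for 3 lists of other splicing regulators, each point a gene with a ranked peak in both replicates. Filled points have a conservative summit, and the number of genes shown is printed under each list. The open SR points, rsp-4 (63.1) and rsp-3 (50.4), lie within the range of the 6 points of nonsense-mediated decay. These 6 lie below the 6 filled SR points, which are the SR genes that passed the threshold. The gene smg-1, with a ranked peak in replicate 2 only, is not shown.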

How the data were processed

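Per the labels, the tagged protein was precipitated through GFP in 2 replicates. The authors deposited peak lists on assembly ce11, per the file headers and notes: a thresholded and a ranked list per sample, and pairs of both kinds from both samples. As to software, no label or note names an aligner or a peak caller. The signal of a peak is the authors' deposited value, with no scaling between samples stated. The deposited score is a scaled IDR with 1000 as its highest value, and the conservative set holds scores from 830 (an IDR of 0.01). The ranked lists carry −log10 of the IDR as deposited by the authors. Each ranked list has 8 further unnamed columns, which were not used, and the −log10 q values were not used either. Peak lists hold no read counts, so depth is unknown.

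A summit was column 2 plus column 10, written 1-based. The signal of a site in a replicate is that of the highest ranked peak overlapping its interval by at least 1 bp. Named genes are all members, genes sharing their summits, the 3 highest of each further list and the 3 most like the strongest member. Outside this rule, the upstream neighbours C33H5.13, spin-4 and ndx-6, the ncRNA gene M28.13, vps-32.1 (which shares the site of icd-1), rheb-1 and sri-5 (whose starts are nearer to the summits of spk-1 and rsr-1), and smg-1 were named after their values were seen. The genes hrpa-1, uaf-2 and itsn-1 (whose start is nearer to the summit of uaf-2) were also named in this way. Members and lists were chosen with earlier results of these data known. With 1 group there was no contrast, so no test was made. Annotation was Ensembl release 115 on WBcel235. The gene rule was tested on simulated peaks. Proteins of the members were planned and not used here. Computations used Python 3.11.15, numpy 2.4.6, pandas 2.3.3 and matplotlib 3.10.9.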

Additional observations from a re-analysis of the deposited data

How the results depend on the processing

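The count of 6 SR genes with a conservative summit stayed between 5 and 7 over 8 alternatives: another set, window, overlap rule or signal minimum, or 1 replicate alone. With replicate 1 left out the list of replicate 2 gave 6 members and 2493 genes in all, and with replicate 2 left out the count was 5 (rsp-7 was lost) and 2514 genes. With only peaks at or above the median signal of the set, 5 members remained (rsp-8 was lost), while the count over all genes went from 2686 to 1606. Signal in the set from both samples, which draws on the alignments of both, was higher than the mean of the replicates at each site, at 716 for rsp-1 and rsp-2, 407 for rsp-6, 371 for rsp-5, 264 for rsp-7, and 219 and 218 for rsp-8 (3′ end and upstream). With 1 replicate left out, the signals ran from 345 to 372 for rsp-1 and rsp-2, from 200.0 to 216 for rsp-6, from 162 to 215 for rsp-5, from 110 to 175 for rsp-7, and from 119 to 138 and 111 to 113 for the sites of rsp-8. Taking the ranked peak with the nearest summit changed no value. With starts of all biotypes, the rsp-7 summit went from -282 bp (snu-13) to 11 bp past the start of M28.13, and that of rsp-1 and rsp-2 from -231 to -176 bp. No paired analysis was possible because there is only 1 group. Peak lists give no depth, so a site missing from rsp-3 or rsp-4 was not detected in these lists, which is not absence.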
